A study of Sus scrofa with 20 samples.

Results

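The genes described here encode 10 contractile proteins of fast-twitch muscle fibres, namely MYH1, MYH2, MYH4, MYL1, MYLPF, TNNC2, TNNI2, TNNT3, TPM1 and MYBPC2. All probe sets whose only gene symbol in the array annotation is one of these 10 were taken, which gave 28 of the 45922 porcine probe sets tested, out of 13609 named genes. RNA from the longissimus dorsi muscle of 10 adult Duroc and 10 adult PiNN pigs, all fattened at one research station, was hybridised to Porcine Snowball arrays (Affymetrix), 1 for each animal. PiNN are Pietrain pigs homozygous negative for malignant hyperthermia syndrome, and Duroc is a breed of another metabolic type. No animal was treated, and the labels place the sampling 24 h before slaughter, although the study describes muscle for its other assays as taken after it. The study lists sex only for pigs with methylation libraries and without animal numbers, so it could not be matched to the arrays and was not modelled.

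Contraction of skeletal muscle rests on myosin heads in the thick filament that pull on actin in the thin filament. The heavy chain sets the speed of a fibre. MYH7 is the slow chain, MYH2 the chain of fast type IIa fibres, MYH1 that of type IIx and MYH4 that of type IIb, and pig longissimus is known for its many fast glycolytic fibres. Each heavy chain carries an essential light chain (MYL1 in fast fibres) and a regulatory light chain (MYLPF). On the thin filament, calcium binds troponin C (TNNC2 in fast fibres), which releases the inhibition by troponin I (TNNI2), while troponin T (TNNT3) ties the complex to tropomyosin (TPM1 and its relatives). MYBPC2 is the fast form of myosin-binding protein C, which lies along the thick filament. In the pig assembly Sscrofa11.1, MYH4, MYH1 and MYH2 follow one another on chromosome 12, and TNNI2 and TNNT3 both lie on chromosome 2.

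Each value is the log2 signal of a probe set, and 1 unit is a 2-fold change. The members were among the strongest signals of the array, with 23 of 28 above the 99th percentile of mean signal (10.1) and 19 above 12. Mean signals of 26 were above the average of the array's 69 background probe sets (3.93), and those of 2, one of MYH4 (mean 1.98) and one of TPM1 (mean 3.59), were below it. The highest signal on any array was 14.37, and TNNC2 averaged 13.57, so several members lay near the upper end of the scale. Markers of skeletal myofibres were above background for 7 of 7 genes, with mean levels of 12.5 to 12.8 in both breeds. A suffix that Affymetrix gives to probe sets able to match several transcripts was carried by 13 of the 28, and signals of near-identical myosin genes could be mixed in them. Array medians ran from 4.61 to 4.73. Background signal ran from 3.78 to 4.21, with PiNN 49 highest, and in Duroc 3 arrays (animals 24, 31 and 32) lay at 4.05 to 4.10, apart from the other 7 at 3.78 to 3.86.

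No breed difference passed the test for any of the 28 fast-twitch probe sets. In limma with adjustment over all tested probe sets, their adjusted p ran from 0.258 to 0.989, whereas 4.17% of all tested probe sets passed. At an unadjusted p under 0.05 there were 2, MYLPF and one probe set of TNNI2, against 17.3% of all tested. The mean was higher in PiNN for 20 of 28 (71.4%) and higher in Duroc for 8, compared with 54.9% higher in PiNN among all tested and 56.9% among the 123 with a mean over 12. The median difference, Duroc minus PiNN, was −0.09 over the members, −0.02 over all tested and −0.03 over those with a mean over 12. For the brightest probe set of each gene, the 95% confidence intervals of the difference lay between −0.47 and 0.15. The members share animals and move together, so the 20 are not independent counts.

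Signals of the fast heavy chains overlapped between breeds. The MYH1 probe set (SNOWBALL_015077_s_st) read 12.57 in the lowest Duroc animal, 12.80 at the median and 12.98 in the highest, and 12.64, 12.82 and 13.14 in PiNN. The ranges overlapped, although PiNN 49, 35 and 62 lay above every Duroc animal, and the difference was −0.05 (SE 0.08, adjusted p = 0.809). MYH2 (SNOWBALL_015120_st) ran from 9.78 over a median of 10.38 to 10.70 in Duroc, and from 9.82 over 10.67 to 10.88 in PiNN. One low animal stood below the rest in PiNN (animal 62), and 8 of 10 PiNN animals were above the Duroc median. Its difference of −0.22 (SE 0.12) did not pass, with an adjusted p of 0.398.

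MYH4 was the heavy chain with most probe sets, 7 in all. Its brightest (SNOWBALL_014795_s_st) ran from 13.44 over 13.56 to 13.68 in Duroc and from 13.33 over 13.57 to 13.66 in PiNN, so that 5 of 10 PiNN animals lay above the Duroc median. The difference was 0.01 (SE 0.06, adjusted p = 0.981), and its interval reached from −0.12 to 0.14. Differences of the other 6 were between −0.14 and 0.53, with 5 of the 7 higher in Duroc. The value of 0.53 came from a probe set with a mean of 3.97, next to background, whose interval of −0.08 to 1.14 included 0.

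Among proteins bound to myosin, MYLPF had the smallest p of all members. Its probe set (SNOWBALL_004560_st) ran from 12.70 over 12.85 to 12.99 in Duroc and from 12.68 over 13.05 to 13.17 in PiNN. Of the PiNN animals, 8 of 10 were above the Duroc median, and animals 62 and 49 were at the low end of both breeds. The difference was −0.16 (SE 0.07, unadjusted p = 0.0398, adjusted p = 0.258). MYL1, the partner light chain, had a difference of 0.01 (SE 0.07) for its brightest probe set, with a higher mean in Duroc for all 3 probe sets and a lowest adjusted p of 0.81. The 2 probe sets of MYBPC2 had differences of −0.15 and −0.22, with adjusted p of 0.393 and 0.312, and 8 of 10 PiNN animals lay above the Duroc median of each.

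The thin filament genes were all higher on average in PiNN, without passing the test. TNNI2 had 4 probe sets with differences from −0.24 to −0.07. Its brightest (SNOWBALL_022450_s_st) ran from 12.71 over 13.09 to 13.44 in Duroc and from 12.73 over 13.29 to 13.65 in PiNN. Both breeds thus shared most of the range, and the difference was −0.16 (SE 0.12, adjusted p = 0.551). The TNNI2 probe set with the largest difference (SNOWBALL_020968_s_st, −0.24, SE 0.12) had an unadjusted p of 0.0482 and an adjusted p of 0.284.

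TNNT3 was represented by 6 probe sets, all with a higher mean in PiNN, by 0.06 to 0.19. The brightest (SNOWBALL_026832_s_st) ran from 13.05 over 13.27 to 13.39 in Duroc and from 12.86 over 13.35 to 13.51 in PiNN. PiNN animals therefore lay at both ends of the pooled range. Its difference was −0.06 (SE 0.08, adjusted p = 0.816), and the lowest adjusted p of the 6 was 0.296. TNNC2 had a difference of −0.09 (SE 0.08, adjusted p = 0.623), and the bright probe set of TPM1 one of −0.04 (SE 0.08, adjusted p = 0.879). The second TPM1 probe set, below background, gave −0.23 with an adjusted p of 0.298.

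**Figure D1:**
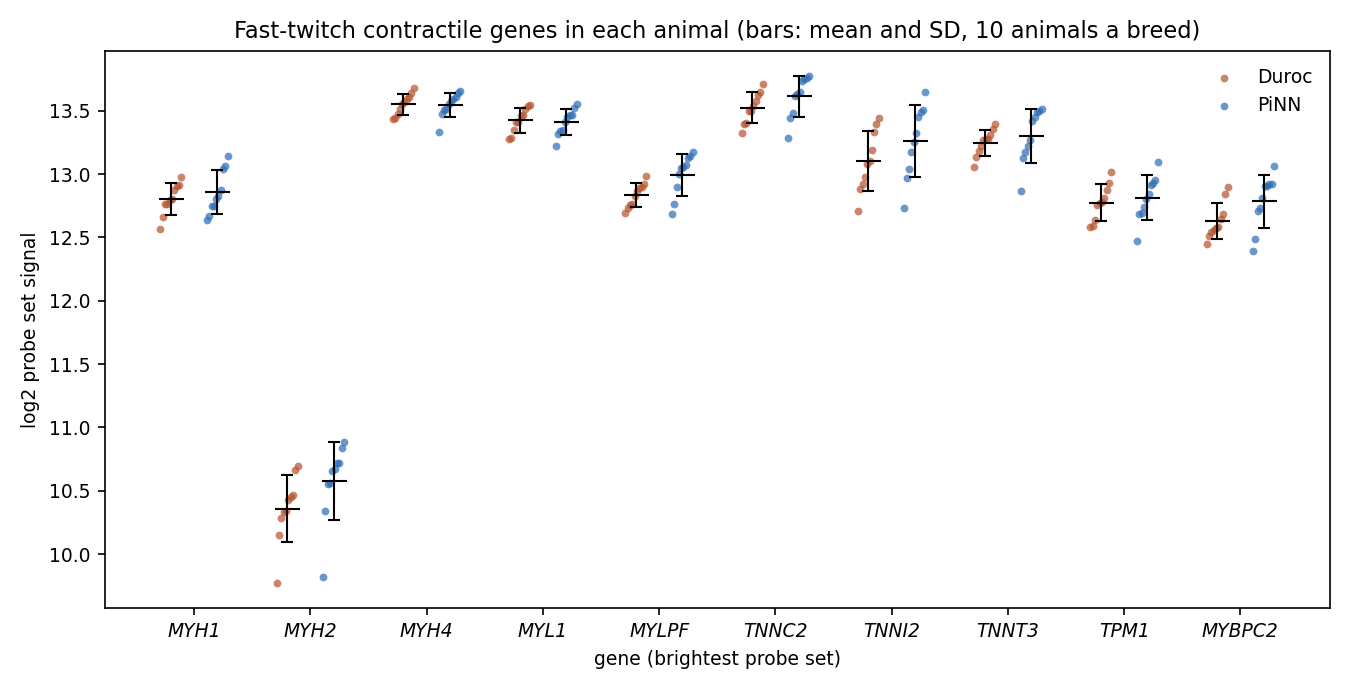
The vertical axis is the log2 signal of the brightest probe set of each gene, with 1 point per animal (Duroc in brown, PiNN in blue) and black bars for the mean and SD of 10 animals. Within each gene the breeds overlap, as for MYH1 at 12.57 to 12.98 in Duroc and 12.64 to 13.14 in PiNN, and heights of different genes do not rank their transcripts.

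**Figure D2:**
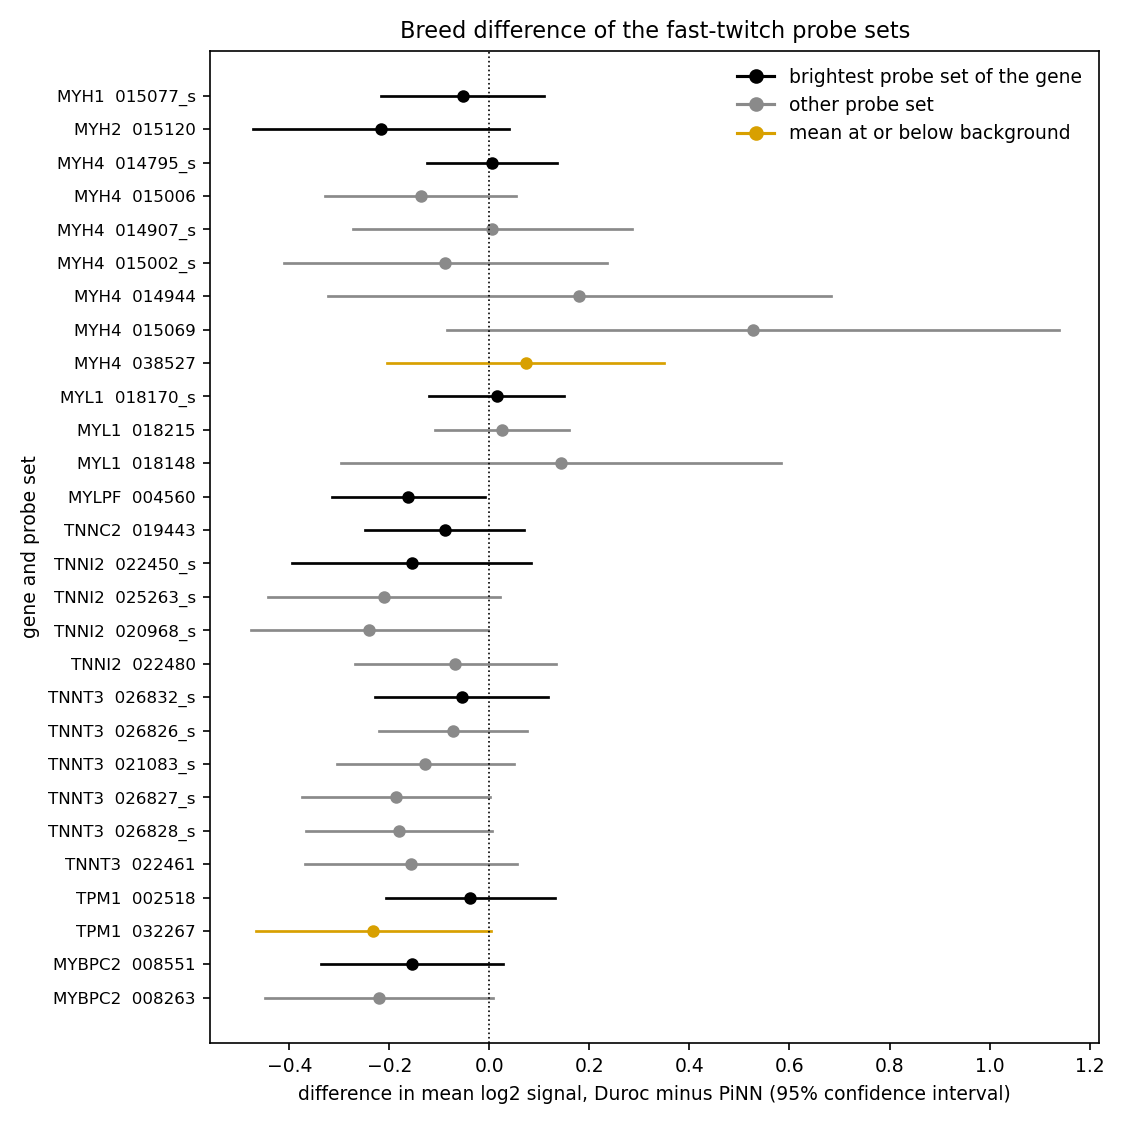
Points are differences in mean log2 signal, Duroc minus PiNN, with lines for 95% confidence intervals (10 animals a breed), one row per probe set. Of the 28, 20 lie left of 0, and only the lines of MYLPF and of 1 TNNI2 probe set stop short of 0.

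The spread between animals was larger in PiNN than in Duroc, and this rested on few animals. No test of it was made. The SD was larger in PiNN for the brightest probe sets of all 10 genes and for 22 of 28 probe sets, against 54.3% of all tested and 69.9% of those with a mean over 12. Without PiNN 49 the SD was larger in PiNN for 5 of the 10 genes and 14 of 28 probe sets, against 47.3% of all tested and 48.8% of those with a mean over 12. Without PiNN 49 and 62 the counts were 2 of 10 and 8 of 28, and the shares 43.4% and 39.0%. PiNN 49 was the lowest PiNN animal for 6 genes (MYH4, MYL1, TNNC2, TNNI2, TNNT3 and TPM1) and the highest for MYH1. PiNN 62 was lowest for MYH2, MYLPF and MYBPC2. Duroc 24 was the lowest Duroc animal for 7 genes, among them all thin filament members.

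Inside each breed, the regulatory light chain and the 4 thin filament genes varied together from animal to animal. Correlations were computed over the 10 animals of a breed on the brightest probe sets, with 100000 resamples for each permutation p and adjustment over all 90 values (45 pairs in each breed). The 10 pairs among MYLPF, TNNC2, TNNI2, TNNT3 and TPM1 had r of 0.79 to 0.97 in Duroc (rho of at least 0.85) and 0.83 to 0.98 in PiNN (rho of at least 0.71). By Pearson's r all passed in both breeds, with the highest adjusted p at 0.0211 and 0.0132, and by rho 10 passed in Duroc and 9 in PiNN, where MYLPF with TNNC2 missed (adjusted p = 0.0768). TNNI2 and TNNC2, 2 subunits of one complex, had r of 0.97 in Duroc and 0.95 in PiNN. TNNI2 and TPM1 reached 0.91 and 0.98. Without the 2 animals farthest from the median of the first gene, r stayed at or above 0.66 in Duroc and 0.84 in PiNN.

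Over all 45 pairs, 17 passed in Duroc, all positive, and 16 in PiNN, of which 13 were positive and 3 negative. The median r was 0.54 in Duroc and 0.52 in PiNN. Without regard to sign it was 0.54 and 0.59, while between the members and all other tested probe sets it was 0.31 in both breeds. Other strong signals also correlated with one another. Among 104 other probe sets with a mean over 12, the median r over pairs, with its sign, was 0.20 in Duroc and 0.10 in PiNN. Without regard to sign that median was 0.39 and 0.34. An r over 0.7 was reached by 37.8% of member pairs in Duroc and 28.9% in PiNN, against 13.1% and 11.5% of pairs of those other probe sets.

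Array background varied along with these signals. In Duroc the 3 animals with arrays of higher background had the 3 lowest TNNI2 signals and the 3 lowest TNNC2 signals. Over all 10 Duroc animals, in these 2 parts, r of the 5 genes with background was −0.85 to −0.58 (rho −0.93 to −0.75). By r, TNNC2, TNNI2 and TNNT3 passed (permutation p adjusted over 20 relations 0.035, 0.037 and 0.037). Those of TPM1 and MYLPF did not pass (0.0794 and 0.143). For TPM1 and MYLPF rho was −0.87 and −0.75, with unadjusted permutation p of 0.00212 and 0.0175. Within the other 7 Duroc animals r of the 5 genes with background was −0.59 to −0.27 (exact permutation p 0.165 to 0.562). Within the same 7 Duroc animals the 10 pairs had r of 0.62 to 0.93, with exact permutation p from 0.00556 to 0.133 and 7 of 10 under 0.05. In PiNN, background was highest for animals 49 (4.21) and 36 (4.09) and at most 3.99 for the others. Over all 10 PiNN animals r of the 5 genes with background ran from −0.63 to −0.32 (rho −0.58 to −0.16, permutation p adjusted over 20 relations 0.123 to 0.395). Without the 2 farthest animals r was −0.42 to −0.01. Without PiNN 49 the 10 pairs kept r of 0.79 to 0.97. With residuals on array background the 10 pairs had r of 0.63 to 0.91 in Duroc and 0.85 to 0.98 in PiNN. Centring on array medians gave a lowest r of 0.85 and 0.86, and quantile normalisation one of 0.32 and 0.71.

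The brightest MYL1 probe set passed with all 5 of these genes in Duroc and with none in PiNN. In Duroc its r was 0.80 to 0.87 (highest adjusted p 0.0223), and in PiNN 0.26 to 0.62 (lowest adjusted p 0.117). The difference between breeds was tested for each pair and did not pass (lowest adjusted p 0.823). With TNNI2, the other MYL1 probe sets had r of 0.86 and −0.01 in Duroc and 0.81 and −0.06 in PiNN. For the brightest MYL1 probe set, r with array background was −0.77 in Duroc and −0.79 in PiNN (permutation p adjusted over 20 relations 0.0509 and 0.037). By r, MYBPC2 passed in PiNN with MYLPF (r = 0.83), TNNC2 (0.77) and TNNT3 (0.74), while in Duroc its r with these was 0.61, 0.46 and 0.35. By rho none of these passed in PiNN (adjusted p 0.178, 0.141 and 0.122). Without the 2 animals farthest from the median of the first gene, r in PiNN was 0.27, 0.34 and 0.65. For MYBPC2 the difference between breeds did not pass either. MYH2 and the brightest probe set of MYH4 passed with no member in either breed. Their r with the 5 genes ran from −0.53 to 0.48 for MYH2 and from 0.16 to 0.55 for MYH4.

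**Figure D3:**
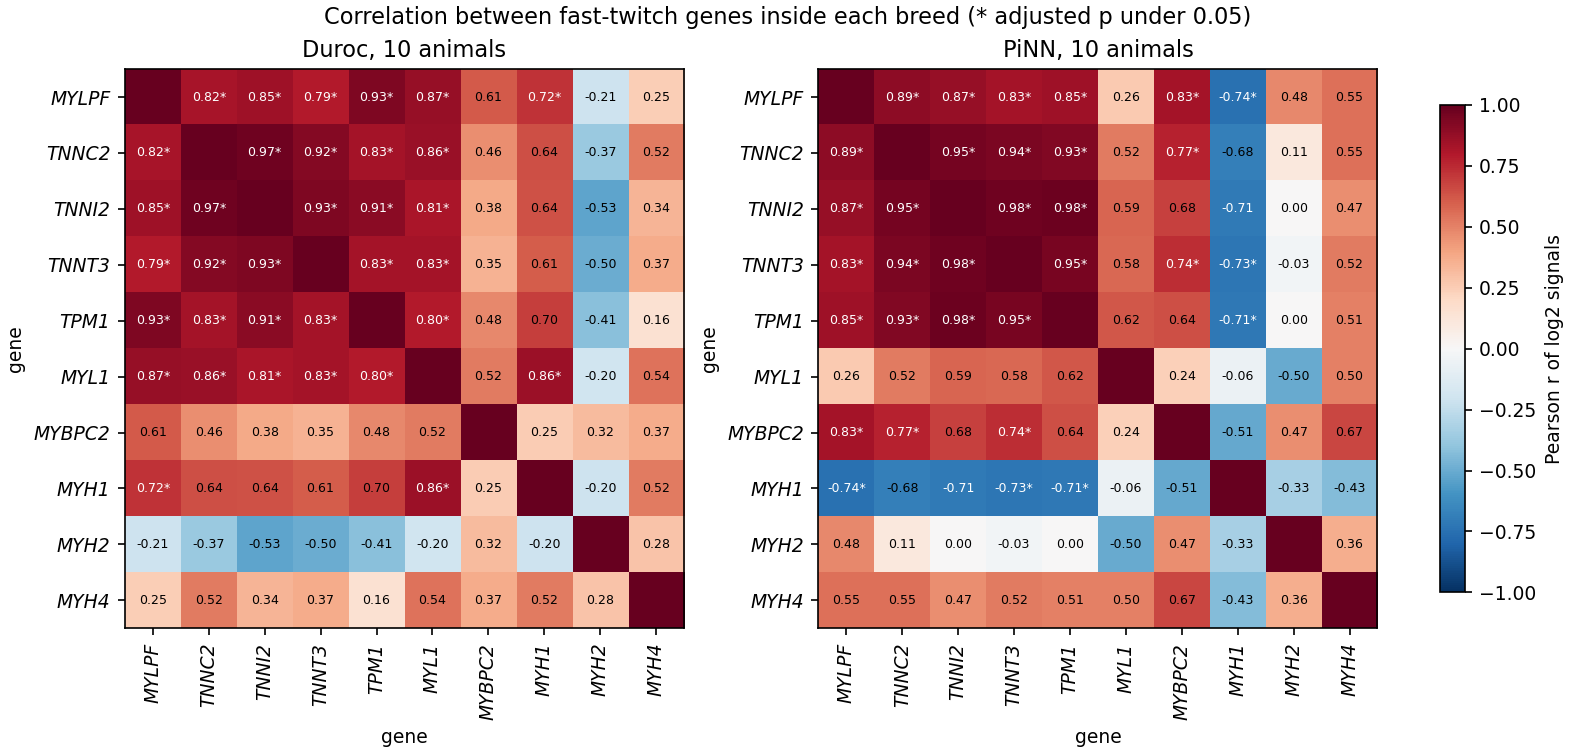
Each cell gives Pearson's r between the log2 signals of 2 genes over the 10 animals of a breed (Duroc left, PiNN right), coloured from −1 (blue) to 1 (red), and a star marks an adjusted p under 0.05. The block of 5 genes at the upper left has r of 0.79 or more in both panels. The cells of MYH1 with these 5 genes are red in Duroc (0.61 to 0.72) and blue in PiNN (−0.74 to −0.68).

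The correlations of MYH1 with 5 other members were positive in Duroc and negative in PiNN, and few of them passed within a breed. Its r with MYLPF, TNNC2, TNNI2, TNNT3 and TPM1 was between 0.61 and 0.72 in Duroc (rho 0.71 to 0.79, adjusted p from 0.0494 to 0.130) and between −0.74 and −0.68 in PiNN (rho −0.72 to −0.47, adjusted p from 0.0427 to 0.0662). By r, only MYLPF passed in Duroc, and none of the troponins did (TNNC2 0.102, TNNI2 0.104, TNNT3 0.13). In PiNN MYLPF, TNNT3 (0.0485) and TPM1 passed by r, while TNNC2 (0.0662) and TNNI2 (0.057) did not. By rho none passed in PiNN (adjusted p 0.0712 to 0.337), and MYLPF and TPM1 passed in Duroc. With 1 animal left out, 0 to 4 passed by r in PiNN (0 without PiNN 49 or 62) and 0 or 1 in Duroc. After centring on array medians 4 passed in Duroc and 0 in PiNN. In Duroc, MYH1 also followed the brightest MYL1 probe set, with r = 0.86 (adjusted p = 0.00799). With the other MYL1 probe sets its r in Duroc was 0.12 and 0.49. The 3 PiNN animals with the highest MYH1 signal, 49, 35 and 62 at 13.14, 13.07 and 13.04, had TNNI2 signals of 12.73, 13.17 and 13.04, all below the PiNN median of 13.29. Animals 49 and 62 also had the 2 lowest MYLPF signals, 12.76 and 12.68. In Duroc, the 4 animals with the highest MYH1 signal had the 4 highest TNNI2 signals, from 13.19 to 13.44.

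The difference in r between breeds was tested, after the signs had been seen, by permuting breed over animals centred on their breed's mean, with adjustment over all 45 pairs. It passed for 5 pairs, those of MYH1 with the 5 genes, and for no other. With MYLPF the difference was 1.47 (adjusted p = 0.0054), and with the other 4 genes 1.33 to 1.41 (adjusted p = 0.0203). Since the 5 genes move together, these are one pattern rather than 5. Without PiNN 49 only the pair with MYLPF passed (r in PiNN −0.64 to −0.47 over the 5), and without PiNN 62 likewise 1 of 5. With residuals on array background none of the 5 passed, although r kept its sign in each breed (0.22 to 0.57 and −0.75 to −0.70). Quantile normalisation left 3 of 5 (TNNC2, TNNI2 and TNNT3) and took r in Duroc to between −0.38 and 0.32. With MYLPF, r was then −0.38 in Duroc and −0.63 in PiNN (adjusted p of the difference 0.421). Without the 3 Duroc arrays of higher background all 5 passed, with adjusted p from 0.0216 to 0.0411. Within the other 7 Duroc animals r of MYH1 with the 5 genes was 0.49 to 0.76 (exact permutation p 0.0492 to 0.262). MYH1 is measured by 1 probe set, of the kind that can match several transcripts.

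**Figure D4:**
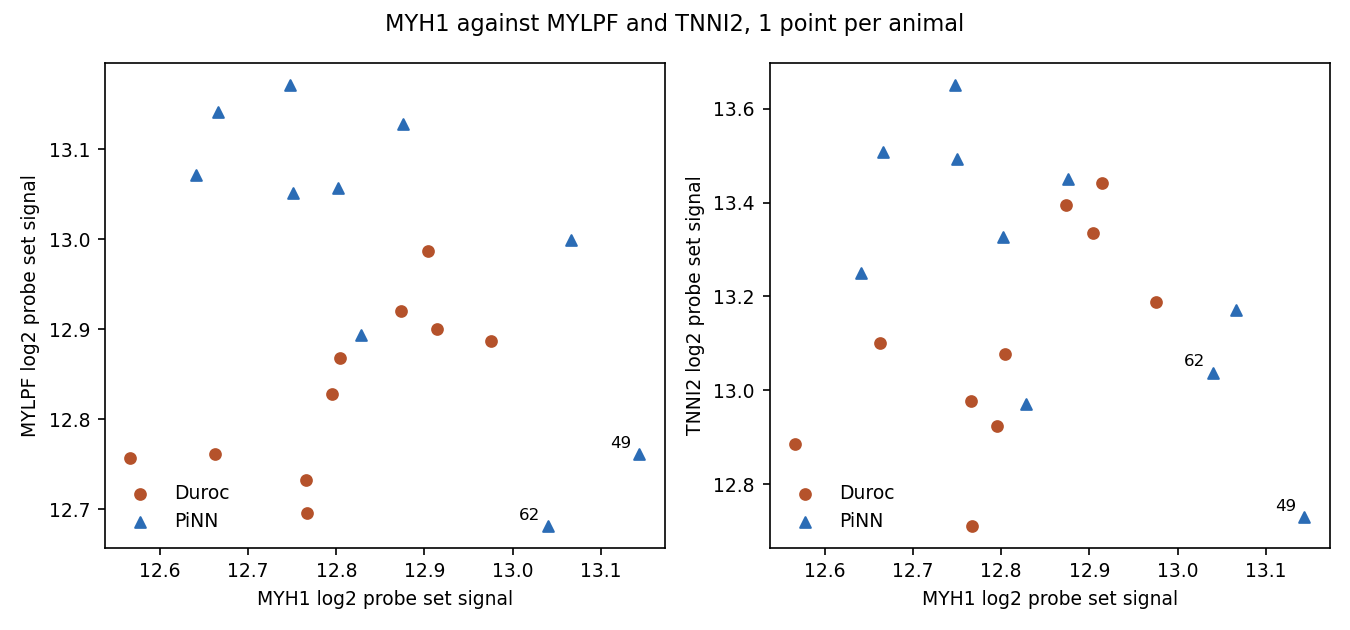
The log2 signal of MYH1 (horizontal) is plotted against that of MYLPF (left) and TNNI2 (right), with 1 point per animal, circles for Duroc and triangles for PiNN. Duroc points climb to the right (r = 0.72 and 0.64) and PiNN points fall (r = −0.74 and −0.71), with PiNN 49 and 62 at the lower right.

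Probe sets of one gene varied together for TNNI2, TNNT3 and MYBPC2, and only in part for MYH4 and MYL1. The 2 of TPM1, of which 1 was below background, had r of 0.07 in Duroc and 0.51 in PiNN. Within TNNI2 the r between its 4 probe sets was 0.74 to 0.98 in Duroc and 0.89 to 0.97 in PiNN. Within TNNT3 it was 0.61 to 0.96 and 0.83 to 0.98, and between both MYBPC2 probe sets 0.86 and 0.98. In MYH4, 3 probe sets with means of 12.2 to 12.5 had r of 0.84 to 0.98 with one another in the 2 breeds. Their r with the brightest MYH4 probe set was −0.30 to 0.33, and with the one at a mean of 6.47 it was −0.56 to −0.21. A single MYH4 level per animal is therefore not given by these data. In MYL1, r between probe sets fell as low as 0.07 in Duroc and 0.20 in PiNN.

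**Figure D5:**
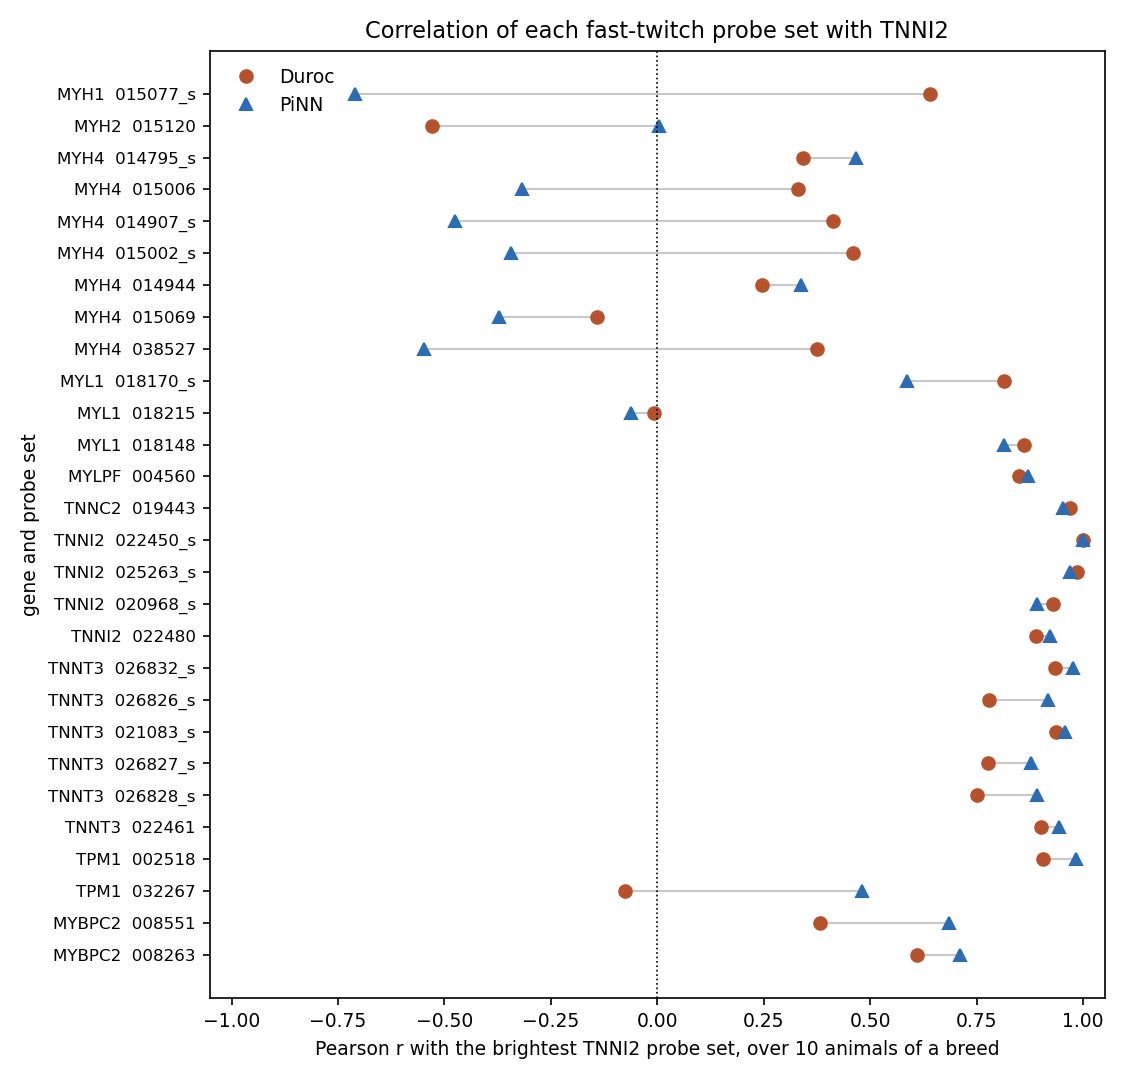
Each row is a fast-twitch probe set, and the horizontal axis is Pearson's r with the brightest TNNI2 probe set over 10 Duroc animals (circles) or 10 PiNN animals (triangles). Troponin T and the other TNNI2 probe sets sit at 0.75 or more, while the MYH4 probe sets lie between −0.55 and 0.47.

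Genes outside the members that mark fast fibres gave no called difference either. Of 12 listed, 10 were named on the array with 1 probe set each, and 0 passed in limma (2 at an unadjusted p under 0.05), with 9 of 10 higher in PiNN and a median difference of −0.12. ATP2A1, the calcium pump of fast fibres, had −0.18 (SE 0.06, unadjusted p = 0.00853, adjusted p = 0.111), and 10 of 10 PiNN animals were above the Duroc median. PYGM, the muscle glycogen phosphorylase, had −0.19 (adjusted p = 0.272) at a mean of 4.28, little above background, and PVALB, the calcium buffer parvalbumin, 0.41 (adjusted p = 0.339). The slow-twitch list went the other way in its means. Of its 23 probe sets 21 were higher in Duroc, with a median of 0.25, and 0 passed in limma, nor did any at an unadjusted p under 0.05. MYH7 had 0.26 for its brighter probe set (SE 0.14, adjusted p = 0.385) and 0.34 for the other (SE 0.17, adjusted p = 0.318). The slow regulatory light chain MYL2 had 0.49 (SE 0.24, adjusted p = 0.307). Over animals of a breed, the brighter MYH7 probe set passed with none of the 10 members (20 relations, r from −0.48 to 0.61, lowest adjusted p 0.75).

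Of genes shared by fast and slow sarcomeres, 1 of 23 probe sets passed, a share near the 4.17% of all tested, and 3 had an unadjusted p under 0.05. The one that passed was of ACTC1 (0.94, adjusted p = 0.0316) with a mean of 2.16, below background. Of the regulators of fibre type, 2 of 40 passed, also near that share, and 14 had an unadjusted p under 0.05, against 17.3% of all tested. Both that passed were of MEF2D, a transcription factor of muscle genes, which was higher in PiNN by 0.33 and 0.31 (adjusted p = 0.0307 and 0.0364). Of developmental and specialised myosins only MYH15 and the light chain MYL4 were named on the array, and 0 of 3 probe sets passed in limma (1 at an unadjusted p under 0.05). Among markers of other cells, 1 of 3 red blood cell probe sets passed. This was ALAS2, the first enzyme of haem synthesis in red cells, with a mean of 4.16 near background and a difference of −0.51 (adjusted p = 0.0327). The 2 probe sets of the haemoglobin gene HBB had −1.16 and −0.16 (adjusted p = 0.0527 and 0.437). The mean level of the red cell list ran from 4.50 to 6.05 in Duroc and from 5.51 to 6.92 in PiNN, both named genes being above background. No probe set of the adipocyte, endothelium, fibroblast, leukocyte, smooth muscle, Schwann cell or satellite cell lists passed in limma, with 0 to 2 of each list at an unadjusted p under 0.05. The part of red cell RNA in the member signals was not tested, and in bulk tissue fewer fibres of a type cannot be told apart from less RNA per fibre.

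The genes most like each heavy chain were sought among all named genes above background, with signals centred on each breed over the 20 animals. For MYH1 they were MSTN, which encodes myostatin, a brake on muscle growth (r = 0.77, with 0.82 in Duroc and 0.79 in PiNN), RAD51C (0.75) and CASK (0.70). For MYH2 they were ZFP64 (0.88), PTGFR (0.82) and CREBL1 (0.81), and for MYH4 SMC1A (0.89), R3HDM2 (0.82) and SLC38A6 (0.82). These values are the highest of all named genes and describe these 20 arrays only.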

How the data were processed

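The table used holds log2 probe set signals as the authors deposited them. The submitters' processing notes name GCOS 1.1.1, and how signals were summarised and normalised is not given in the sources used here. Of 47845 probe sets, the test covered 45922 for pig transcripts, while 1923 (controls, background, other species) were left out. Breeds were compared with limma 3.58.1 (R 4.3.3, breed as the only term, two-sided) with Benjamini-Hochberg adjustment at 0.05, after the procedure had been tested on simulated data. The ANOVA with q-values of the study's methods was an alternative. Permutation tests and correlations used Python 3.11.15 with numpy 2.4.6 and scipy 1.17.1. All members and all their probe sets were reported. Values by animal were given for the brightest probe sets of MYH1, MYH2 and MYH4 and of the 3 members with the smallest p. From each related list MYH7 and up to 3 genes with the smallest p were named. Members and lists were chosen with earlier results of these data known. PiNN and Duroc animals share no numbers. The p-values treat the animals as independent, and nothing states that the animals were unrelated. The number of arrays limits the precision. No sequence or position is printed. The breed test of correlations, the relations with background and MYH7, and the values without PiNN 62 or without Duroc 24, 31 and 32 were added after seeing the data. The group of MYLPF, TNNC2, TNNI2, TNNT3 and TPM1 was not planned either.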

Additional observations from a re-analysis of the deposited data

Results flagged for a closer look

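MYH2, lowest PiNN animal. Animal 62 had a log2 signal of 9.82, and the next lowest PiNN animal 10.34, a gap that was 0.489 of the whole range of the 10 animals. It was the only animal flagged as far from the others in 56 groups of 10 (28 probe sets in 2 breeds), where chance flags about 1 in 20 groups.

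Correlations of MYH1 with 5 other members differed between breeds by the permutation test of the difference. Duroc minus PiNN, the difference in r was 1.47 with MYLPF, 1.33 with TNNC2, 1.35 with TNNI2, 1.33 with TNNT3 and 1.41 with TPM1. PiNN 49, which had the highest array background, had the highest MYH1 signal and the lowest TNNC2, TNNI2, TNNT3 and TPM1 signals of its breed. The r of MYH1 with array background was −0.63 in Duroc and 0.25 in PiNN (permutation p adjusted over 20 relations 0.123 and 0.503). Its rho was −0.79 in Duroc (unadjusted permutation p = 0.00895) and 0.01 in PiNN. Without the 2 animals farthest from the MYH1 median, r was −0.31 and −0.50. The part of array background in this pattern was not tested beyond the values given.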

How the results depend on the processing

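No fast-twitch probe set passed under 28 of 29 alternatives (other normalisations, fits and filters, the q-values of the ANOVA, array background as covariate, each animal left out). The ANOVA at an unadjusted p under 0.05 gave 3 probe sets of 2 genes (MYLPF and 2 of TNNT3), with 7836 of all tested. With background as covariate 24 of 28 were higher in PiNN and the lowest adjusted p was 0.0666. The median difference stayed between −0.12 and −0.07 with 1 animal left out, and was −0.13 with background as covariate. Shared sarcomere genes had 2 calls after quantile normalisation and 0 among brighter probe sets alone.

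Correlated pairs numbered 9 in PiNN by Spearman's rho (median 0.25), and 9 in Duroc with residuals on array background. Median r in Duroc and PiNN was 0.30 and 0.35 after quantile normalisation, 0.68 and 0.63 after centring on array medians, and 0.36 and 0.34 with residuals on background. With 1 animal left out, pairs numbered 9 to 17 in Duroc (9 without Duroc 24) and 10 to 15 in PiNN (10 without PiNN 49), and medians ran from 0.50 to 0.68 and from 0.28 to 0.65. Of the 5 MYH1 pairs that differed between breeds, 3 passed after quantile normalisation (not MYLPF or TPM1) and 0 with residuals on background. With 1 animal left out, 1 to 5 passed (1 without PiNN 49 and 1 without PiNN 62, each time MYLPF). The cause was not tested. No paired analysis was possible because Duroc and PiNN animals share no replicate numbers. Signals near the upper end of the scale may limit what could be detected, which was not tested. The use of 10 animals a breed also limits detection.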
